A study of Mus musculus with 3 samples.

Results

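Multiciliated choroid plexus cells were taken here as the wild-type cells of the embryonic mouse dorsal midline that carried both Ttr, the transthyretin transcript of the choroid plexus epithelium, and 3 genes of the multiciliation programme. A cell with at least 1000 genes, at least 2000 unique molecular identifiers (UMIs, each standing for 1 captured transcript) and at most 10% mitochondrial UMIs was called a Ttr cell if it held at least 20 Ttr UMIs per 10000. It was called a member if, in addition, Foxj1, Deup1 and Dynlrb2 together gave at least 8 raw UMIs. Of 17626 wild-type cells that passed the filters, 1077 in library 1 and 970 in library 2 were Ttr cells and 779 were members, 397 in wild-type library 1 and 382 in wild-type library 2. They were set against the other Ttr cells of the same libraries, 680 and 588 cells with a sum of at most 7. The members were chosen by the measured values of Ttr, Foxj1, Deup1 and Dynlrb2, so the levels of these 4 genes are given as a description and stand outside every count below.

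The series profiled single cells of the hem region with droplet 3′ RNA sequencing in Gmnc-/- and wild-type embryos of strain C57BL/6J. The knockout was 1 library of 4 pooled Gmnc-/- embryos at E12.5. The wild type was 1 cell suspension that pooled 4 PGKCre;Rosa26YFP embryos at E11.5 with 4 Wnt3aCre;Rosa26tdTomato embryos at E12.5, split over 2 libraries. PGKCre is driven by a broadly active promoter and Wnt3aCre by a gene of the hem. The wild-type libraries are technical repeats of 1 sample and the knockout is 1 sample, so no test was run, and genotype, stage and transgenes cannot be told apart in any comparison with the knockout.

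Multiciliated cells build many basal bodies and then as many motile cilia in a cell that has stopped dividing. In the known order of the programme, the geminin-related regulator Gmnc acts upstream of Mcidas and of Trp73 and Myb, Mcidas acts with E2f4 or E2f5 on centriole genes, the deuterosome made with Deup1 serves as a platform for new centrioles, and Foxj1 and the Rfx factors act on axoneme genes. Choroid plexus epithelial cells carry tufts of such cilia on the surface that faces the cerebrospinal fluid.

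Median depth was alike in the cells compared. Members had a median of 10985 and 12142 UMIs per cell in libraries 1 and 2, and the other Ttr cells 11198 and 12552. The mean was higher in members. The 397 and 382 members held 6392017 and 6870653 UMIs in all, and the 680 and 588 other Ttr cells 9298254 and 8671048. In summed counts the deep cells weigh most. The whole libraries held 259403297 UMIs in the knockout, and 148073906 and 139978761 in the wild type. Wild-type libraries 1 and 2 shared 1914 barcodes, of which 1864 were over 30-fold apart in UMIs, with a median of 43.2-fold. Of the members, 56 in library 1 and 110 in library 2 had a barcode that was also listed in the other library. None of them had over 30-fold more UMIs under its barcode in the other library, and 2 of the other Ttr cells in library 1 had. Without every cell that shared a barcode, 341 and 272 members were left, 35.01% and 35.4% of the Ttr cells, against 36.9% and 39.4% with them. The simulated-doublet score marked 15.1% and 13.6% of the members, against 8.97% and 7.31% of the other Ttr cells.

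**Figure D1:**
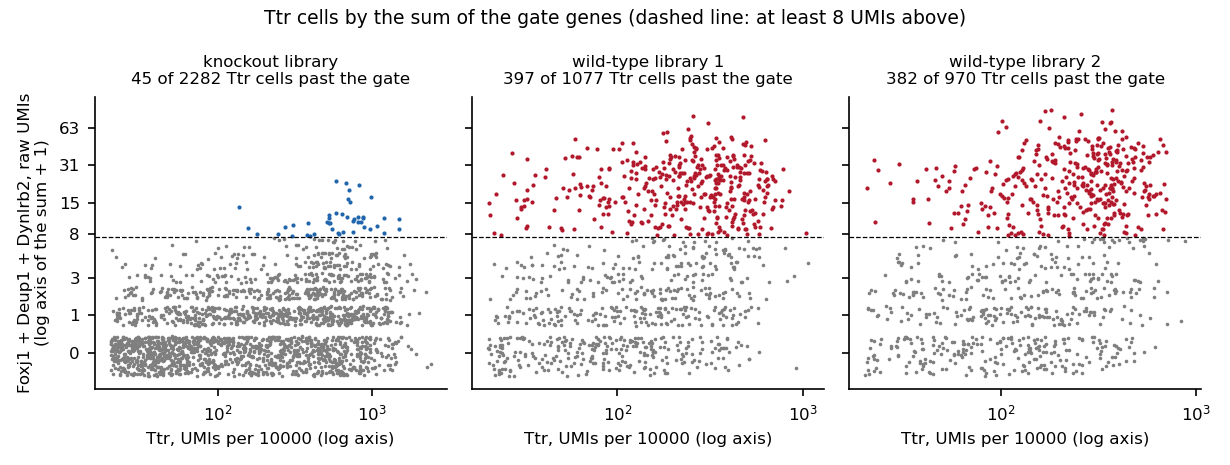
Each point is a Ttr cell; the horizontal axis gives Ttr UMIs per 10000 and the vertical axis the raw UMIs of Foxj1, Deup1 and Dynlrb2 together, drawn with a small vertical offset, on a log axis of the sum plus 1. Coloured points hold at least 8 UMIs: 45 of 2282 Ttr cells in the knockout library, and 397 of 1077 and 382 of 970 in the wild-type libraries.

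The gate genes give the shape of the group. Foxj1, the forkhead factor of motile ciliogenesis, had a median of 9 and 10 raw UMIs per member in libraries 1 and 2, with quartiles of 7 and 13 and of 7 and 14. Deup1, which builds the deuterosome, had a median of 4 and 5 UMIs, and 88.7% and 88.5% of the members held at least 1. Dynlrb2, a light chain of dynein motors, had a median of 6 and 7 UMIs and at least 1 in 87.2% and 88.5% of the members. The sum of the 3 genes had a median of 20 and 22 UMIs and reached 78 and 87. Cells with sums of 7 and 8 were close to each other in genes that the rule did not use. The 17 and 17 cells with a sum of 8 held 3570 and 3049 CPM (the UMIs of a gene over all UMIs of the summed cells, scaled to 1e6) of motile cilia genes, and the 13 and 21 cells with a sum of 7 held 3549 and 3942 CPM. Cells with a sum of 6 held 3480 and 2388 CPM, and those with a sum of 9 held 4277 and 5394 CPM. At the other threshold, 6 and 4 members with 20 to under 25 Ttr UMIs per 10000 held 3969 and 9304 CPM. The 4 and 1 cells with 15 to under 20 held 2599 and 2380 CPM, so these few cells were not close in library 2.

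Ttr itself had a median of 254 and 266 UMIs per 10000 in the members, against 121 and 123 in the other Ttr cells. Erythroid cells, which should hold neither Ttr nor cilia transcripts, give the level of free RNA. In the wild type, 1 of 217 and 0 of 191 erythroid cells reached the Ttr level of the rule, and 2 and 0 reached the sum of 8. Those cells had a median of 16446 and 18579 UMIs, deeper than the members.

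The label was checked against markers. Rsph1, a radial spoke gene and the remaining marker of the given set, had 293 and 298 CPM in members (95% Poisson intervals 280 to 307 and 286 to 312) and 21.2 and 17.5 CPM in the other Ttr cells (18.3 to 24.4 and 14.9 to 20.5), a log2 ratio of 3.87. The values did not overlap. Of 12 markers of choroid plexus epithelium, 10 and 9 reached 20 CPM in members of libraries 1 and 2. In the other Ttr cells 9 and 9 did. Aqp1 had 2.35 and 3.78 CPM and Car12 3.91 and 4.08 CPM in members. The 12 markers summed to 4449 and 4621 CPM in members, against 3998 and 4097 CPM in the other Ttr cells. Markers of Cajal-Retzius neurons, the neurons that the hem produces with an overlapping set of regulators, summed to 31.6 and 49.6 CPM in members and 58.2 and 40.9 CPM in the other Ttr cells, and none of the 8 reached 20 CPM in either. Mesenchyme markers summed to 26.4 and 27.2 CPM in members and 61.3 and 40.7 CPM in the other Ttr cells, and microglia markers to 4.69 and 1.46 CPM in members and 3.44 and 7.50 CPM in the other Ttr cells. Erythroid markers summed to 1315 and 200 CPM in members and 240 and 223 CPM in the other Ttr cells, so library 1 alone held more of them in members; their part in the results was not tested. Cortical hem markers summed to 1119 and 1044 CPM in members and 1716 and 1880 CPM in the other Ttr cells. Pallial progenitor markers summed to 385 and 306 CPM in members and 305 and 299 CPM in the other Ttr cells. For neuron markers the sums were 152 and 154 CPM in members and 199 and 147 CPM in the other Ttr cells. Members thus also held transcripts of these classes. Whether the cells carried cilia was not measured.

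Across the genome, 324 of 6921 genes were at least 2-fold higher in the members than in the other Ttr cells, which is 4.68% of the genes tested, and 44 were at least 2-fold lower, which is 0.636%. Tested genes reached 50 UMIs and 20 CPM in the set with the higher level. A gene below that level in 1 set was tested only through the other set, so the numbers called are a description. A gene was called if the fold held in both libraries with Poisson intervals that did not overlap. The median log2 ratio of all tested genes was -0.01. The log2 ratios of libraries 1 and 2 differed by a median of 0.09. Of the 324 higher genes, 79 were on the lists of axonemal genes described below and 200 were on no list. The number of lower genes depended on which cells entered: it was 150 without the cells that shared a barcode, 156 without the doublet calls and 107 without cells that held markers of other types, while the higher genes numbered 436, 417 and 399.

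Several regulators of the programme were far higher in the members, while Gmnc, E2f4 and Rfx3 were near even and E2f5 was somewhat lower. Mcidas, which switches on centriole amplification, had 123 and 134 CPM in members, against 7.3 and 7.5 CPM in the other Ttr cells, a log2 ratio of 3.95. Ccno, a cyclin-like gene needed for making enough basal bodies, had 281 and 289 CPM in members, against 29.1 and 28.9 CPM in the other Ttr cells, a log2 ratio of 3.25. Cdc20b, whose product is found at the deuterosome, had 30.8 and 28.4 CPM in members, against 0.65 and 0.58 CPM in the other Ttr cells, a log2 ratio of 4.25. In all 3 genes both libraries gave nearly the same level and the 2 sets of cells stood far apart.

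Trp73, a p53 relative needed for multiciliated cells, had 67.6 and 67.5 CPM in members, against 6.0 and 9.9 CPM in the other Ttr cells, a log2 ratio of 2.93. Myb, a cell-cycle factor that acts early in the programme, had 85.3 and 102 CPM in members, against 15.5 and 12.6 CPM in the other Ttr cells, a log2 ratio of 2.66. Rfx2, which acts on ciliary genes, had 26.8 and 23.7 CPM in members, against 7.9 and 8.3 CPM in the other Ttr cells, a log2 ratio of 1.53. With these, 6 of the 11 tested regulators were higher and none was lower, beside 4.68% higher and 0.636% lower over all tested genes. Mcidas, Cdc20b, Trp73, Myb and Rfx2 were below 20 CPM in the other Ttr cells. They reached the level for testing only through the members, so the number called is a description.

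Gmnc, the gene deleted in the knockout and the first of the cascade, was not among them. It had 80.7 and 88.6 CPM in members, against 74.1 and 78.4 CPM in the other Ttr cells, a log2 ratio of 0.15, and its Poisson intervals overlapped in both libraries. After every cell was thinned to 4000 UMIs, 22.2% and 25.6% of the members and 20.5% and 24.2% of the other Ttr cells held a Gmnc UMI. In erythroid cells 0.463% and 0.524% held one. Of the partners of Mcidas, E2f4 had 36.3 and 39.4 CPM in members and 39.7 and 38.9 CPM in the other Ttr cells, and E2f5 had 47.1 and 52.8 CPM in members and 72.5 and 78.2 CPM in the other Ttr cells, a log2 ratio of -0.58. Rfx3 was likewise near even, at 65.2 and 66.1 CPM in members and 51.5 and 54.3 CPM in the other Ttr cells.

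**Figure D2:**
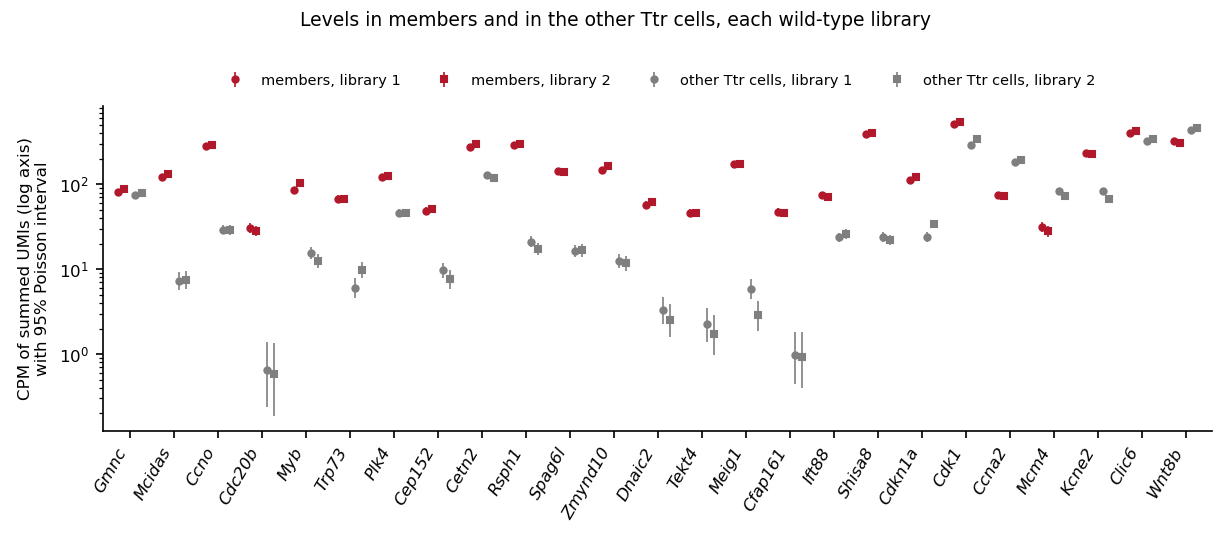
CPM of summed UMIs on a log axis, with 95% Poisson intervals, for members (red, left) and other Ttr cells (grey, right) in wild-type library 1 (circles) and library 2 (squares). Mcidas, Ccno, Cdc20b and the axoneme genes stood far apart between the cell sets, Gmnc lay near 80 CPM in all 4, and Cdk1 was higher in members while Ccna2 and Mcm4 were lower.

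Ccno, Mcidas and Cdc20b are neighbours. In GENCODE vM21 on GRCm38 they lie on chromosome 13 on the plus strand, Ccno at 112987802 to 112990777, Mcidas at 112993845 to 113000394 and Cdc20b at 113035111 to 113091195. Gpx8, an endoplasmic reticulum peroxidase gene annotated inside the span of Cdc20b, had 87.2 CPM in members and 133 CPM in the other Ttr cells as the mean of the libraries, a log2 ratio of -0.61. Gm10735, also inside that span and on the other strand, was too low to be tested, with 5.63 and 4.66 CPM in members and 1.29 and 0.692 CPM in the other Ttr cells, a log2 ratio of 1.63.

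The promoters of several higher genes hold the same short word, 1 arm of the X-box. Rfx factors bind the X-box, a pair of inverted short words, and the word searched here was GTTGCC or its complement GGCAAC, on either strand, in the RefSeq promoter windows, which are all of 1 length and run from before each gene start to just after it. Neither this word nor the forkhead word below contains the other. It was found for 103 of the 266 higher genes that the promoter table holds (38.7%), for 920 of 5556 tested genes (16.6%) and for 3821 of all 27025 genes in the table (14.1%). Among higher genes of the axonemal lists it was found for 29 of 61 (47.5%), and among lower genes for 5 of 31 (16.1%). A forkhead word, GTAAACA or TGTTTAC, was found for 10 of the 266 higher genes (3.8%) and 177 of the 5556 tested genes (3.2%). A match is a description of letters and not of binding. The windows below show the word in capitals with 20 bases on each side, 5′ to 3′ on the strand of the gene, from RefSeq on GRCm38.p6; shown are gate genes, regulators and axonemal genes of the text that hold the word before the start. They are Deup1 at chr9:15627900-15627945 on the minus strand, Dynlrb2 at chr8:116504944-116504989 on the plus strand, Mcidas at chr13:112993653-112993698 and Ccno at chr13:112987563-112987608 on the plus strand, Dnaic2 at chr11:114727373-114727418 on the plus strand, Fam183b at chr11:58802002-58802047 and Cfap161 at chr7:83794853-83794898 on the minus strand.
Deup1: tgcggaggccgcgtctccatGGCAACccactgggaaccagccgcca
Dynlrb2: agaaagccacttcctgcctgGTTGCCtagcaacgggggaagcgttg
Mcidas: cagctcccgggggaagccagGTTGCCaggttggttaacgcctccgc
Ccno: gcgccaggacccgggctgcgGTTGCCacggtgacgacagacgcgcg
Dnaic2: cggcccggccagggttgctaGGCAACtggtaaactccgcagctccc
Fam183b: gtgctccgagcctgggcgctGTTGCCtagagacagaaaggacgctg
Cfap161: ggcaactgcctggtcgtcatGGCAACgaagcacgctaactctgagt
The word ended 74 bases before the start in Deup1, 46 in Dynlrb2, 21 in Dnaic2, 62 in Fam183b and 34 in Cfap161, and 190 and 214 bases before it in Mcidas and Ccno. The Cfap161 promoter held further copies upstream, 54 and 61 bases before the start.

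Genes of centriole amplification were higher to a smaller degree. Of 30 listed, 25 were tested, 9 were higher and none was lower, beside 4.68% higher and 0.636% lower over all tested genes. The median log2 ratio over all 30 was 0.89. Genes low in the other Ttr cells, Cep152 among them, were tested only through the members, so this count too is a description. Cep152, a scaffold for new centrioles, had 48.7 and 51.8 CPM in members, against 9.7 and 7.6 CPM in the other Ttr cells, a log2 ratio of 2.41. Plk4, the kinase that starts centriole assembly, had 122.5 and 126 CPM in members, against 46.5 and 45.8 CPM in the other Ttr cells, a log2 ratio of 1.41. Tube1 (epsilon tubulin, log2 ratio 1.86), Stil (1.35) and Cetn2 (centrin, 1.21) also passed. Sass6, the cartwheel protein of every new centriole, had 54.6 and 58.7 CPM in members and 33.8 and 36.6 CPM in the other Ttr cells and did not reach 2-fold.

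Axoneme genes were higher in the members on each of their 4 lists. Over the genes with a UMI, the median log2 ratio was 2.33 for 29 genes of the radial spoke and central pair, 2.07 for 27 dynein arm genes, 1.55 for 13 genes of dynein arm assembly and 2.51 for 68 genes of the axonemal doublet and other motile cilia parts, beside 0.01 over all genes with a UMI. Of the 141 listed genes, 91 reached the level needed for a call, 79 were higher and none was lower. Over all tested genes 4.68% were higher and 0.636% lower. Genes near 0 in the other Ttr cells reached that level only through the members, so the number called is a description. Meig1, best known from the sperm flagellum, had 173 and 173 CPM in members, against 5.9 and 2.9 CPM in the other Ttr cells, a log2 ratio of 5.01. Cfap161, a protein inside the doublet microtubules, had 47.4 and 45.8 CPM in members, against 0.97 and 0.92 CPM in the other Ttr cells, a log2 ratio of 4.61. Both libraries put the members far above the other Ttr cells.

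Dnaic2, an outer dynein arm chain, had 56.6 and 62.1 CPM in members, against 3.3 and 2.5 CPM in the other Ttr cells, a log2 ratio of 3.94. Zmynd10, needed to assemble dynein arms before transport, had 148 and 164 CPM in members, against 12.6 and 11.8 CPM in the other Ttr cells, a log2 ratio of 3.57. Spag6l of the central pair had 144 and 138 CPM in members, against 16.2 and 16.7 CPM in the other Ttr cells, a log2 ratio of 3.02. Tekt4, a filament protein of the doublet, had a log2 ratio of 3.97, and Fam183b and Ccdc146 had 4.35 and 4.03.

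Genes that motile and primary cilia share were higher by less. Of 44 listed genes of intraflagellar transport, which carries cargo along every cilium, 38 were tested, 12 were higher and none was lower, and the median log2 ratio over all 44 was 0.79. Ift88 had 74.5 and 70.0 CPM in members, against 23.7 and 25.8 CPM in the other Ttr cells, a log2 ratio of 1.51, and Ttc30b and Wdr60 had log2 ratios of 1.88 and 1.56. Of 29 tested genes of the transition zone and of basal body docking, 6 were higher, and the median over all 37 listed was 0.55. Cep83, a distal appendage protein that docks the basal body, had a log2 ratio of 1.83. Of 10 tested genes of planar polarity and apical actin, which orient and anchor basal bodies, none was called in either direction, and the median over all 20 listed was -0.07. With 4.68% of all tested genes higher and 0.636% lower, a list this short can hold none. Ezr, the ezrin gene, had 1821 and 1878 CPM in members and 1677 and 1698 CPM in the other Ttr cells.

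**Figure D3:**
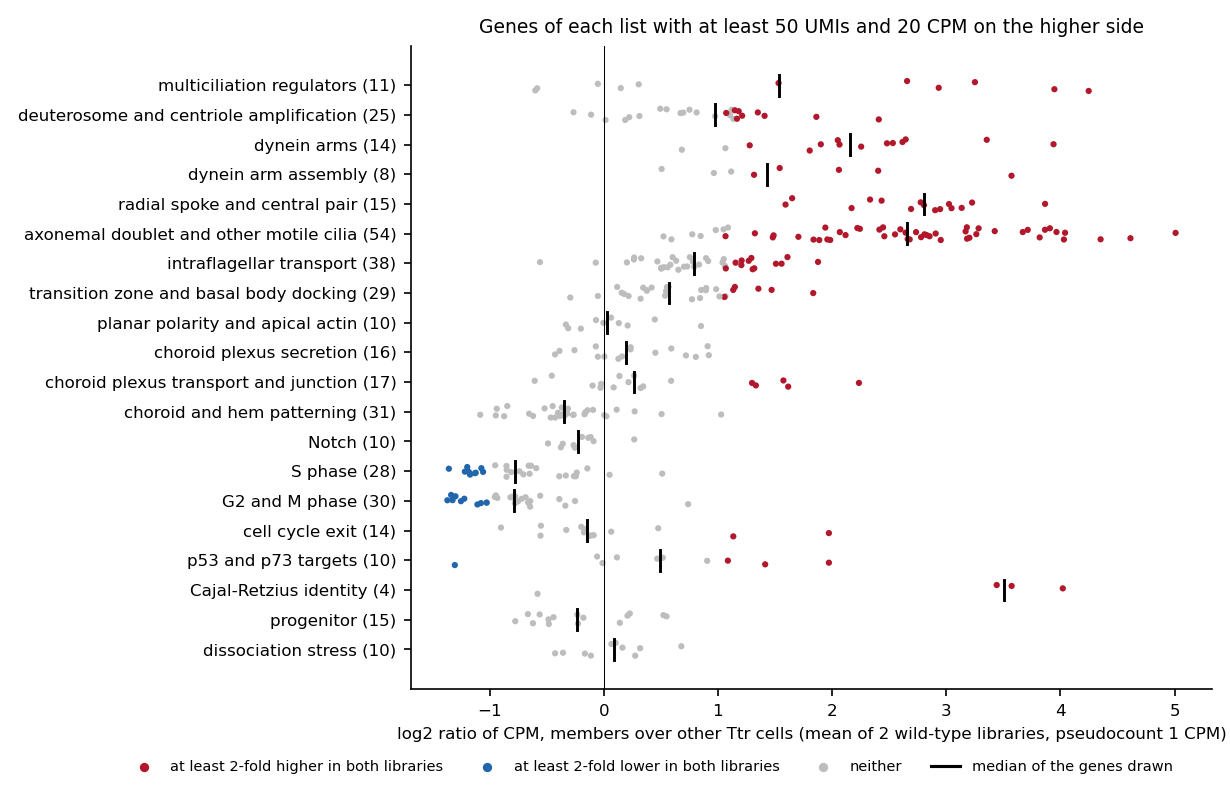
Each point is a tested gene; the axis is the log2 ratio of members over other Ttr cells, with the number of genes per list in brackets and a black bar at their median. The points of the 4 axonemal lists lay on the higher side, where genes low in the other Ttr cells enter through the members. Of 58 S, G2 and M phase genes 18 were at least 2-fold lower, beside 0.636% of all tested genes.

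Choroid plexus genes were somewhat higher in the members as a sum, and part of the transport machinery more so. At 4000 UMIs per cell, genes of secretion and transport together, without Ttr, had medians of 28 and 29 UMIs in members. The other Ttr cells had medians of 23 and 23. None of 16 tested genes of choroid plexus secretion was called, beside 4.68% higher and 0.636% lower over all tested genes. Igfbp2 had 1364 and 1391 CPM in members and 1390 and 1353 CPM in the other Ttr cells, and Folr1, the folate receptor of this epithelium, had 203 and 205 CPM in members and 181 and 192 CPM in the other Ttr cells. Of 17 tested genes of transport and junctions 5 were higher and none was lower. Kcne2, a potassium channel subunit of the apical membrane, had 232 and 230 CPM in members, against 82.8 and 66.5 CPM in the other Ttr cells, a log2 ratio of 1.62. Kcnj13, another potassium channel of this epithelium, had 128 and 143 CPM in members, against 51.9 and 57.1 CPM in the other Ttr cells, a log2 ratio of 1.30. Slco1c1, a thyroid hormone transporter, and Slc4a2, an anion exchanger, had log2 ratios of 2.24 and 1.33. Slco1c1 was no longer called with a gate of 5 UMIs, after thinning before the gate or without library 1, at 2.07 to 2.33.

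Signals of the hem leaned the other way. None of 31 tested patterning genes was called, beside 4.68% higher and 0.636% lower over all tested genes. Of the 31, 25 had a log2 ratio below 0, and the median over the 40 listed genes with a UMI was -0.32. Rspo3, which enhances Wnt signalling, had 521 and 502 CPM in members and 899 and 976 CPM in the other Ttr cells, a log2 ratio of -0.87. Wnt8b had 320 and 307 CPM in members and 437 and 461 CPM in the other Ttr cells. Sox9 stood on the other side, with 112 and 114 CPM in members and 51.5 and 57.9 CPM in the other Ttr cells, a log2 ratio of 1.03 that reached 2-fold in library 1 alone. Otx2, the homeobox gene that choroid plexus formation needs, was nearly even, at 555 and 576 CPM in members and 609 and 661 CPM in the other Ttr cells.

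Cell cycle genes were lower as a group in summed counts, with 1 exception of size. Of 58 tested genes of S, G2 and M phase, 18 were lower and none was higher, beside 0.636% lower and 4.68% higher over all tested genes. Of the 58, 55 had a log2 ratio below 0, and the median over all 60 listed was -0.79. Ccna2, the cyclin of S phase and G2, had 74.5 and 73.8 CPM in members, against 182 and 196 CPM in the other Ttr cells, a log2 ratio of -1.34. Nusap1, a spindle protein, had 57.3 and 56.5 CPM in members, against 136 and 161 CPM in the other Ttr cells, a log2 ratio of -1.37. Mcm4, a subunit of the replicative helicase, had 31.8 and 28.1 CPM in members, against 84.4 and 72.0 CPM in the other Ttr cells, a log2 ratio of -1.36. With the cells that shared a barcode left out, the median of the 60 listed genes was -1.19, and without the doublet calls it was -1.13. The other Ttr cells were mixed in these genes. At 4000 UMIs per cell their sum had medians of 22 and 23 UMIs, with quartiles of 8 and 42 and of 8 and 47. Members had medians of 14 and 14, with quartiles of 10 and 19 and of 10 and 21. The lower quartile of the other Ttr cells was thus below that of the members, and the upper quartile far above it.

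Cdk1, the kinase of mitotic entry, was the 1 gene of the G2 and M phase list with a log2 ratio above 0. It had 508 and 544 CPM in members, against 289 and 341 CPM in the other Ttr cells, a log2 ratio of 0.74 that is below the 2-fold bound. At 4000 UMIs per cell, 81.1% and 86.0% of the members and 47.0% and 50.8% of the other Ttr cells held a Cdk1 UMI. For Ccna2 these shares were 13.6% and 15.04% of the members, and 37.1% and 38.9% of the other Ttr cells. In erythroid cells, themselves dividing, the Cdk1 shares were 25.5% and 25.1%. Ccne1, the cyclin of the G1 to S step, also stood above its list, at 50.2 and 47.9 CPM in members and 37.9 and 30.3 CPM in the other Ttr cells.

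Cdkn1a, the cyclin-dependent kinase inhibitor p21 and a target of the p53 family, had 114 and 120 CPM in members, against 24.2 and 34.0 CPM in the other Ttr cells, a log2 ratio of 1.97. Of 10 tested targets of p53 and p73, Trp53inp1 (log2 ratio 1.41) and Plk2 (1.09) were higher as well and Psrc1 was lower (-1.30). Psrc1 is a microtubule-binding protein of the spindle. Gadd45b, on the list of cell cycle exit, had a log2 ratio of 1.13. The calls of Plk2 and Gadd45b depended on the settings: after thinning before the gate neither was called, at 1.04 and 0.51, nor with a pseudocount of 5, at 0.87 and 0.94. None of 10 tested Notch genes and none of 15 tested progenitor genes was called in either direction, and none of 10 genes that respond to tissue dissociation was. Of all tested genes only 4.68% were higher and 0.636% lower, so lists this short can hold none at that share.

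The 21 genes listed for Cajal-Retzius identity had a median log2 ratio of 0.24, which was -0.17 in library 1 and 0.30 in library 2. Most were low in both sets, and 4 were tested, of which Shisa8, Plvap and Cav2 were higher. Over all tested genes 4.68% were higher and 0.636% lower. Plvap and Cav2 reached the level for testing only through the members. Shisa8, a transmembrane protein gene, had 387 and 397 CPM in members, against 24.2 and 22.3 CPM in the other Ttr cells, a log2 ratio of 4.02. Plvap and Cav2, genes of vesicle and caveola structures, had log2 ratios of 3.57 and 3.44. Plvap and Cav2 are also genes of endothelium, whose 6 markers summed to 23.2 and 22.3 CPM in members and 34.8 and 33.7 CPM in the other Ttr cells. In members Kdr gave 19.7 and 18.3 CPM of these sums, Flt1 had 1.10 and 1.16 CPM, and Cdh5 was at 0. In the other Ttr cells Flt1 was at 0 in library 1 and Cdh5 at 0 in library 2. The part of endothelial RNA in Plvap and Cav2 was not tested. The 8 defining markers of Cajal-Retzius neurons stayed below 20 CPM in both sets. Cells outside the Ttr gate that reached the sum of 8, 151 and 146 in the wild-type libraries, differed from the members in this respect, with summed Cajal-Retzius markers of 651 and 491 CPM.

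Outside the lists, Sfn, a 14-3-3 protein gene that p53 controls in other tissues, had the largest log2 ratio of the genes named, 4.05, with 52.7 and 44.7 CPM in members and 2.4 and 1.6 CPM in the other Ttr cells. Ube2u, Tctex1d1, Lrrc46, Ttc21a and Ppp1r32 followed, with log2 ratios from 3.38 to 3.61. Pidd1, a death-domain protein that joins the PIDDosome at extra centrosomes, had 76.2 and 85.9 CPM in members, against 9.79 and 10.96 CPM in the other Ttr cells, a log2 ratio of 2.85. Kif9, a kinesin of motile cilia, and Hspa2 and Stk33, known from the testis, had 2.82, 2.88 and 2.87. Lhb, the luteinizing hormone beta gene, had 2.86, with 28.0 and 26.8 CPM in members; whether its reads come from a neighbouring or overlapping gene was not tested.

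Among the lowest genes outside the lists, Neil3, a DNA repair enzyme of S phase, had 6.4 and 6.0 CPM in members, against 25.9 and 20.5 CPM in the other Ttr cells, a log2 ratio of -1.75. Fgf17, a growth factor of the rostral and midline signalling centres, had 9.4 and 10.3 CPM in members, against 30.0 and 30.7 CPM in the other Ttr cells, a log2 ratio of -1.53. Tuba1c and Klf7 had -1.46 and -1.28. With a gate of at least 5 UMIs, Tuba1c and Fgf17 were no longer called, at -1.21 and -0.61.

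The members varied widely among themselves. At 4000 UMIs per cell, motile cilia genes without Dynlrb2 gave a median of 39 and 36 UMIs per member, with quartiles of 21 and 61 and of 20 and 60 and a range of 2 to 137 and 3 to 147. The other Ttr cells had medians of 6 and 6. Members were placed in 4 bands of these UMIs, a division made after the values were seen: 0 to 19, 20 to 39, 40 to 59 and 60 or more. The bands held 93, 108, 95 and 101 members in library 1 and 91, 110, 80 and 98 in library 2. The cells of the lowest band had been sequenced deepest, with medians of 19881 and 21177 UMIs before thinning, against 9826 and 11174 in the highest, and 34.4% and 30.8% of them were doublet calls, against 0% and 2.0%. The part of depth and doublets in the pattern was not tested beyond the values without doublet calls given below. The bands hold only cells chosen by the gate genes, and the part of that choice was not tested either.

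Gmnc was lowest in the highest band. Its mean was 0.30, 0.44, 0.26 and 0.08 UMIs per cell from the lowest to the highest band in library 1, and 0.44, 0.35, 0.38 and 0.13 in library 2. Without doublet calls the means were 0.39 and 0.08 in the lowest and highest band of library 1, and 0.48 and 0.14 in library 2. Myb and Trp73 were likewise lowest in the highest band, Myb at 0.32 and 0.24 UMIs and Trp73 at 0.25 and 0.18. Mcidas and Ccno did not follow them. Mcidas had 0.49, 0.48, 0.67 and 0.61 UMIs over the bands in library 1 and 0.42, 0.64, 0.84 and 0.70 in library 2. Ccno had 1.01, 1.27, 1.74 and 1.24 in library 1 and 1.24, 1.47, 1.43 and 1.5 in library 2.

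Deup1 climbed with the bands, at 0.34, 1.16, 1.63 and 2.78 UMIs in library 1 and 0.49, 1.35, 2.01 and 3.13 in library 2, though as a gate gene it was part of the choice of cells. Genes of intraflagellar transport climbed too, at 9.6, 13.6, 17.01 and 20.2 UMIs in library 1 and 9.9, 13.4, 16.5 and 20.8 in library 2. Cdk1 had 1.56, 1.99, 2.72 and 2.85 UMIs in library 1 and 1.45, 2.30, 2.51 and 3.21 in library 2, while S, G2 and M phase genes together had 20.1, 18.0, 14.5 and 12.9 UMIs in library 1 and 22.5, 17.7, 13.5 and 14.4 in library 2. Without doublet calls the sums of the lowest and highest band were 16.7 and 12.9 UMIs in library 1, and 18.4 and 14.5 in library 2, so the lowest band stayed above the highest, but by less. Foxj1 was nearly flat from the second band on, between 3.07 and 3.43 UMIs in both libraries, but as a gate gene it too was part of the choice of cells.

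**Figure D4:**
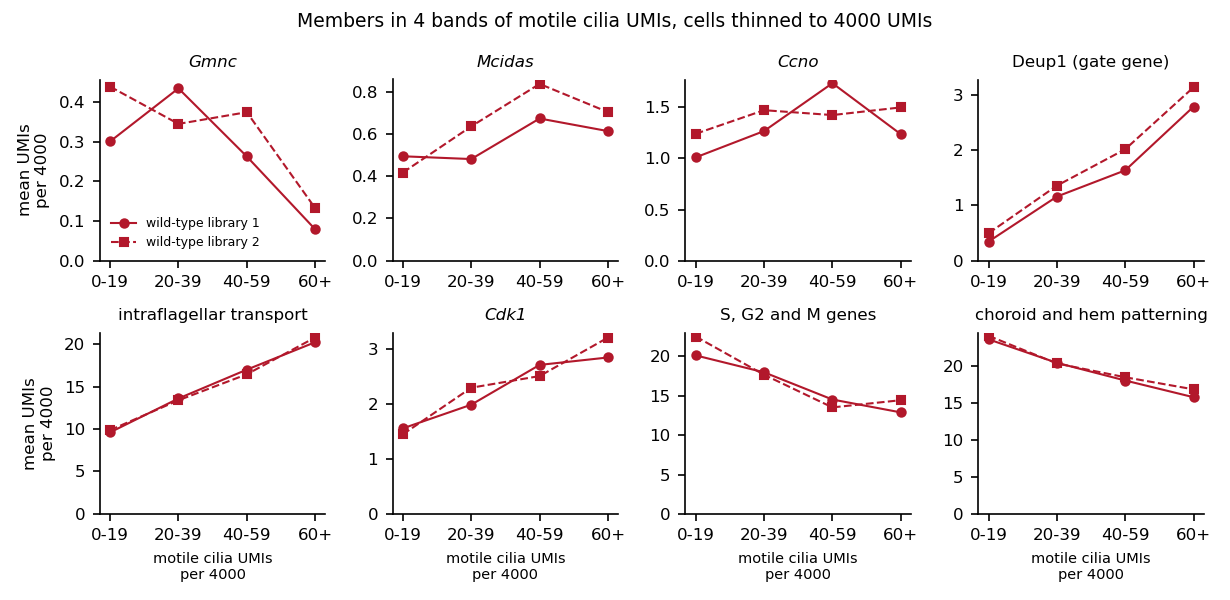
Mean UMIs per cell at 4000 UMIs for members of wild-type library 1 (circles, solid) and library 2 (squares, dashed), in 4 bands of motile cilia UMIs; every vertical axis starts at 0. Deup1, intraflagellar transport genes and Cdk1 were highest in the highest band, Gmnc was lowest there, and Mcidas and Ccno showed no steady order.

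Among members alone, the summed early regulators varied little with the axoneme genes from cell to cell. Gmnc, Mcidas, Ccno, Cdc20b and Myb together gave a median of 2 and 3 UMIs per member at 4000 UMIs, and 15.9% and 12.4% of the members had none. Members with 0, 1 to 2, 3 to 5 and 6 or more of these UMIs held on average 42.6, 43.3, 41.5 and 44.2 motile cilia UMIs in library 1 and 43.3, 37.5, 45.4 and 41.4 in library 2. Spearman's rho between the sums was 0.03 over 397 members of library 1 and 0.07 over 379 members of library 2. Parts of that sum ran in different directions, with a rho against motile cilia genes of -0.18 and -0.19 for Gmnc and 0.08 and 0.14 for Mcidas and Ccno. Foxj1, itself a gate gene, was higher with more early regulators, at 1.79, 2.63, 3.57 and 4.44 UMIs over the same strata in library 1 and 1.81, 2.83, 3.44 and 3.89 in library 2. With Foxj1 the rho of the same sum was 0.39 and 0.29, and the rho of Dynlrb2 with motile cilia genes was 0.78 and 0.75. These are descriptions over cells of 1 suspension, with few UMIs per cell, chosen by the gate genes. The part of low counts and of that choice in the rho was not tested.

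Ttr cells formed a gradient below the gate as well. By gate sums of 0, 1 to 2, 3 to 7, 8 to 15 and 16 or more, motile cilia genes had 5.4, 7.6, 12.4, 26.3 and 50.3 UMIs per 4000 in library 1 and 5.4, 6.9, 11.9, 24.8 and 48.7 in library 2. The early regulators had 0.30, 0.46, 1.12, 2.77 and 2.70 in library 1 and 0.27, 0.42, 1.32, 2.81 and 3.14 in library 2, and so reached their upper level at sums of 8 to 15. Gmnc was highest at sums of 3 to 7, with 0.42 and 0.58 UMIs, against 0.30 and 0.40 at 8 to 15 and 0.20 and 0.23 at a sum of 0. The gate sums are of raw UMIs, and cells at sums of 3 to 7 had the deepest medians before thinning. These were 15440 and 13533 UMIs, against 9494 and 10734 at 8 to 15. The part of depth was not tested. Patterning genes had 31.5, 27.5, 25.5, 21.4 and 18.4 UMIs in library 1 and 32.1, 30.1, 26.3, 21.7 and 19.2 in library 2. Choroid plexus genes without Ttr had 20.1, 24.1, 27.7, 26.1 and 29.7 in library 1 and 21.2, 24.5, 26.9, 27.7 and 30.1 in library 2.

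Reporter transcripts of both lines were found in members. In library 1, 242 members held eYFP without dtTomato, 32 held dtTomato without eYFP, 29 held both and 94 held neither; in library 2 the numbers were 246, 45, 16 and 75. Of Ttr cells with eYFP alone, 34.3% and 38.0% were members (exact binomial intervals 30.8% to 38.0% and 34.3% to 41.9%). Of Ttr cells with dtTomato alone, 30.2% and 43.7% were (21.7% to 39.9% and 33.9% to 53.8%). Ttr cells with dtTomato alone were deeper, with medians of 16058 and 17437 UMIs against 10910 and 12704 for eYFP alone, the gate asks for raw UMIs, and all cells come from 1 suspension, so no comparison of the lines is drawn. A UMI of eYFP was also present without dtTomato in 57.1% and 53.4% of the erythroid cells, and the PGKCre and Wnt3aCre lines label different cells, so a reporter does not give the stage of a single cell.

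In the knockout library, 45 of 2282 Ttr cells passed the same gate, 1.97% (1.44% to 2.63%), against 36.9% (34.0% to 39.8%) and 39.4% (36.3% to 42.5%) in the wild-type libraries. These 45 cells had a median of 44009 UMIs, against 9797 in the other knockout Ttr cells. When each cell was thinned to 4000 UMIs before the gate, 0 of 1992 knockout Ttr cells passed, which allows a share of up to 0.151% by a limit of 3 cells and 0.185% by the exact binomial interval, against 150 of 1063 (14.1%) and 168 of 948 (17.7%) in the wild type. At 8000 UMIs it was 0 of 1339, against 263 of 874 (30.1%) and 260 of 869 (29.9%). The share in the wild type therefore rests on the depth at which 8 UMIs are asked for, while the knockout gave no cell at either depth.

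The 45 knockout cells differed from the wild-type members in several of these genes. They held 365 Foxj1 and 135 Dynlrb2 UMIs in all, 2 UMIs of Deup1 and no UMI of Mcidas, Ccno or Cdc20b. Rsph1 had 29.0 CPM in them, against 293 and 298 CPM in wild-type members. Their motile cilia genes summed to 3979 CPM, against 8747 and 8918 CPM in wild-type members. Of the 45, 40 held at least 3 UMIs of Cajal-Retzius markers or of mesenchyme, endothelium and microglia markers, a share of 88.9%, against 13.4% and 14.4% of the wild-type members. In the 45 cells the endothelium markers summed to 59.9 CPM, of which Kdr gave 59.4, with Cldn5, Cdh5, Flt1 and Esam at 0. The mesenchyme markers summed to 91.9 CPM, of which Pdgfra gave 59.4 and Col1a2 30.5, with Lum at 0 and Col1a1, Col3a1 and Twist1 below 1 CPM. Kdr, Pdgfra and Col1a2 thus gave nearly all of these sums. The depth of the cells moves with the share of 88.9%, and the other knockout Ttr cells gave 32.2%. The doublet score marked 9 of the 45. The part of depth, free RNA or a second cell in the droplet was not tested. Ttr, at 649 UMIs per 10000, was more than in wild-type members, at 254 and 266.

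Over all Ttr cells, the knockout held few or no UMIs of Mcidas, Ccno, Cdc20b, Deup1 and Trp73 but did hold Gmnc transcripts. Mcidas and Cdc20b had no UMI in 2282 knockout Ttr cells, where 3 UMIs would be 0.0774 CPM, against 54.6 and 63.4 CPM of Mcidas and 12.9 and 12.9 CPM of Cdc20b in wild-type Ttr cells. Ccno had 0.23 CPM in the knockout, against 132 and 144 CPM in the wild type, Deup1 had 0.49 CPM, against 134 and 148 CPM, and Trp73 had 3 UMIs, against 31.1 and 35.4 CPM. Foxj1 had 51.2 CPM in the knockout, against 313 and 342 CPM in the wild type. Among Ttr cells below the gate it had 44.1 CPM in the knockout, against 85.6 and 86.3 CPM in the wild type. Motile cilia genes summed to 1690 CPM in knockout Ttr cells and 1563 CPM in those below the gate, against 1848 and 1767 CPM in the wild-type Ttr cells below the gate and 4659 and 4928 CPM over all wild-type Ttr cells.

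Gmnc itself gave 147 CPM in knockout Ttr cells, against 76.8 and 82.9 CPM in wild-type Ttr cells; the 3′ counts do not tell whether the transcript is that of the deleted allele, so the gene does not check the label. Haemoglobin and other erythroid markers summed to 8568 CPM in knockout Ttr cells, against 678 and 213 CPM in the wild type, and 18 of 289 knockout erythroid cells reached the Ttr level of the rule, against 1 of 217 and 0 of 191. The part of this free RNA in the counts of Ttr cells was not tested. Clic6, a chloride channel gene of the choroid plexus, was found in 57.2% of knockout Ttr cells at 4000 UMIs, against 74.4% and 76.9% of wild-type Ttr cells, and Kcne2 in 32.2%, against 30.0% and 30.5%.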

How the data were processed

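Single-cell 3′ libraries were measured from 1 Gmnc-/- suspension (1 library) and 1 wild-type suspension (2 libraries, averaged as 1 sample). The deposited matrices hold raw UMI counts per gene and barcode on mm10, made with Cell Ranger 3.1.0 per the submitters' processing notes; per the file headers the knockout matrix was made with 6.0.0. The feature sets hold 32285 genes in the knockout and 28001 in the wild type, transgene sequences included, and genes were matched by Ensembl ID. Sources used here do not give the annotation release. Different software and feature sets can shift counts of single genes between genotypes.

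From these counts, UMIs were summed per library and cell set with Python 3.11.15, numpy 2.4.6, scipy 1.17.1 and pandas 2.3.3, as CPM with exact 95% Poisson intervals. Shares have exact binomial (Clopper-Pearson) intervals; both cover counting error only. Log2 ratios are members over other Ttr cells, of the mean CPM plus 1 CPM, which understates changes of low genes. Doublets were scored by simulated neighbours (scikit-learn 1.9.0), at 0.8% per 1000 barcodes, and kept unless stated. Cells were thinned to 4000 UMIs for shares and sums per cell, which left out 0 and 3 members and 22 and 23 other Ttr cells. The calling step was tested on simulated data.

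Members and gene lists were chosen with earlier results of these data known. Named genes are the gate genes, Rsph1 and 6 regulators, up to 5 called genes per list with the largest log2 ratios, and outside the lists the 15 highest and 12 lowest, of which the text gives a part. Genes named as not called were chosen after their values were seen. Alternatives covered the gates, doublets, other cell types, depth, pseudocount, low-value filter, scaling, weighting and libraries; those on shared barcodes, symbols, Ttr of at least 100 per 10000 and reporters were added after seeing the data. 1 result is not reported here.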

Additional observations from a re-analysis of the deposited data

How the results depend on the processing

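No paired analysis was possible because the knockout is 1 library and the wild-type libraries are repeats of 1 suspension, so no result comes from a test. Members were 38.1% of wild-type Ttr cells as the mean of the libraries. The share was 43.9% with a gate of 5 UMIs, 32.6% with 12, 35.7%, 43.1% and 47.8% with Ttr of at least 10, 50 and 100 per 10000, 35.2% without shared barcodes, 15.9% after thinning to 4000 UMIs (14.1% to 17.7% with 1 library left out) and 30.0% at 8000. The knockout share was 5.52%, 0.482% and 3.15% with gates of 5 and 12 UMIs and Ttr of 100, 0.329% without cells with markers of other types and 0% after thinning.

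Against 324 higher genes, 611 were found with no filter on low values and 180 in cells with dtTomato alone, and the other settings gave 282 to 436. Against 44 lower genes, 27 were found with a gate of 5 UMIs, 25 with a pseudocount of 5, 67 with no filter, 73 against Ttr cells with a sum of at most 1, 91 with Ttr of 100, 107 without cells of other types, 113 after thinning past the gate, 118 as a mean over cells, 150 without shared barcodes, 156 without doublet calls, 251 after thinning before the gate and 67 to 80 with 1 library left out. The cause was not tested.

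The motile cilia median of 2.25 was 2.49 without doublet calls, 2.46 without other types, 2.10 and 2.49 thinned before and after the gate, 2.71 and 1.65 with pseudocounts of 0.1 and 5, 2.53 with the filter, 2.37 as a mean over cells, 2.64 against sums of at most 1, 2.56 without shared barcodes, 2.39 with eYFP alone and 2.26 to 2.36 with 1 library left out. The median of S, G2 and M phase genes, -0.79, was -0.93 with Ttr of 100, -1.13 without doublet calls, -0.92 without other types, -1.41 and -0.96 thinned before and after the gate, -0.95 as a mean over cells, -0.90 against sums of at most 1 and -1.19 without shared barcodes. Spearman's rho over members averaged 0.05 for early regulators with motile cilia genes and -0.17 for motile cilia with cycle genes; these were -0.0707 and -0.0212 without doublet calls and -0.0951 and 0.00732 without shared barcodes. Of 91 named genes, 35 lost their call in cells with dtTomato alone (32 and 45 members), 13 after thinning before the gate, 9 with a gate of 5 UMIs, 9 with a pseudocount of 5, 5 with Ttr of 100 and at most 4 in each other setting; Cthrc1 changed sign, to 0.21, with dtTomato alone.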
